A study of Mus musculus with 32 samples.

Results

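The response of the neonatal mouse uterus to diethylstilbestrol (DES) was compared between Esr1 wild-type and Esr1 conditional knockout (cKO) animals, gene by gene, as a genotype by treatment interaction. The members are the 16 arrays of the Esr1 line among the 32 arrays of the series, assigned by title to vehicle Esr1 WT, vehicle Esr1 cKO, DES Esr1 WT and DES Esr1 cKO, with 4 arrays each. All 16 samples were day 5 uteri from females of the CD-1 strain, and the series design calls the 4 samples of a group biological replicates. The wild-type groups carry intact Esr1 and the cKO groups a conditional deletion, after vehicle or after DES. The Cre driver, the deleted part of Esr1, the DES dose, the vehicle and any pooling of animals are not stated in the labels. The other 16 arrays come from Foxa2 and Foxo1 lines that have DES groups without vehicle groups, so an interaction of genotype and DES can be formed in the Esr1 line alone.

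Esr1 encodes estrogen receptor alpha, a nuclear receptor that binds DNA at estrogen response elements and also acts through other factors such as AP-1. DES is a synthetic estrogen that binds this receptor strongly. In the uterus the receptor is present in epithelium and stroma, and early exposure of the developing reproductive tract to DES is a known cause of lasting changes of its epithelium. In whole uteri, fewer cells of a type and less RNA per cell cannot be told apart.

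A level here is the log2 intensity of a gene's feature minus the 75th percentile of its array, so 0 is that percentile and negative levels lie under it. A response is the mean level after DES minus that after vehicle, and the interaction is the cKO response minus the wild-type response. A negative interaction therefore means that a rise was smaller in cKO, or a fall deeper. Values are differences of means of 4 and 4 arrays with the standard error (SE) of the limma fit. The call threshold was an adjusted p under 0.05 over the 16069 genes tested.

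On 15 of the 16 arrays the 75th percentile of intensity was 1160 to 1790. It was 551 on vehicle Esr1 WT replicate 4, whose mean correlation with the other arrays of its group was 0.961. Xist, the noncoding RNA that silences 1 X chromosome in female cells, had a level of -2.35 on that array against 3.56 to 4.02 on the other 3 of its group, and all 4 Xist features were low there, so by this gene the array did not match its female label. Counts over all genes and the class sizes are therefore given with and without replicate 4. For a single gene the value without it is given where its call or class changed, or where a called value moved by over 1.5 times. For a list it is given where a count of calls moved by over 1.5 times. The 4 arrays of vehicle Esr1 WT also stood apart from the other 12 at weak features. In the lowest quartile of genes by mean level, 31.1% were called between genotypes after vehicle, against 0.348% in the highest quartile. No batch, slide or scan label is given for these arrays, so group and processing cannot be told apart.

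Esr1 itself was measured first. Its level was 3.24, 2.85, 2.65 and 4.43 on the 4 vehicle Esr1 WT arrays, 2.82, 2.51, 2.43 and 2.46 on those of vehicle Esr1 cKO, 2.28, 2.12, 2.35 and 2.17 on those of DES Esr1 WT and 0.09, 0.46, 0.30 and 0.25 on those of DES Esr1 cKO. All 4 DES Esr1 cKO arrays lay below every array of the other groups, while the vehicle Esr1 cKO arrays reached into the range of vehicle Esr1 WT. The difference of cKO from wild type was -1.96 after DES (SE 0.28, limma adjusted p = 4.65e-05) and -0.74 after vehicle, where it missed the threshold (adjusted p = 0.126). All 11 features of Esr1 gave an interaction of the same sign. Whether this feature lies in the deleted part is not given. The Esr1 level fell after DES in both genotypes, by 1.06 in wild type and by 2.28 in cKO (the wild-type response was -0.69 without vehicle Esr1 WT replicate 4), and the interaction was -1.22 (adjusted p = 0.0241, 95% interval -2.05 to -0.38). Without vehicle Esr1 WT replicate 4 it was -1.59 (adjusted p = 2.23e-05); that array had the highest Esr1 level of its group. The call was lost when all 32 arrays enter the fit and at an adjusted p under 0.01.

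DES changed 9798 genes in wild type, 61% of those tested, with 4146 higher and 5652 lower. In cKO it changed 2216 genes, 13.8%, with 1365 higher (8.49%) and 851 lower (5.3%). Between genotypes 1515 genes (9.43%) were called after vehicle, 3.8% higher and 5.63% lower in cKO, and 6328 (39.4%) after DES, 21.5% higher and 17.9% lower. The interaction was called for 5868 genes, 36.5% of those tested, of which 3291 had a higher and 2577 a lower response in cKO. This split depends on the scaling, since with each array centred on its median 42.4% of the interaction calls were higher instead of 56.1%, and the median over all genes moved from 0.10 to -0.06. With the same scaling, 58.2% instead of 42.3% of the wild-type calls and 76.1% instead of 61.6% of the cKO calls were higher. Without vehicle Esr1 WT replicate 4 the interaction was called for 7369 genes, the wild-type response for 10755 and the cKO response for 3913. The cKO response holds no wild-type array, but its test uses the residual variance of each gene over all 4 groups. Over the 16 differences between a DES array and a vehicle array of each genotype, the differences of the 2 genotypes did not overlap for 24.1% of genes. The arrays of 2 groups did not overlap for 52.6% of genes between DES and vehicle in wild type and 32.3% in cKO. Between genotypes they did not overlap for 15.7% after vehicle and 49.4% after DES.

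Among the 5268 genes changed at least 2-fold in wild type, the cKO response was closer to 0 than the wild-type response for 97.9%. The median cKO response was 20.1% of the wild-type response, 25.1% for the 2404 raised genes and 17.4% for the 2864 lowered genes. These genes were chosen on the wild-type value, which by itself lowers the ratio. For the genes above the median level, the median was 25.8%. Across all 16069 genes the 2 responses, which share no array, correlated at Pearson r = 0.53, and at 0.755 over the 8035 genes above the median level. Genes are not independent replicates, so these correlations only describe the arrays.

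**Figure D1:**
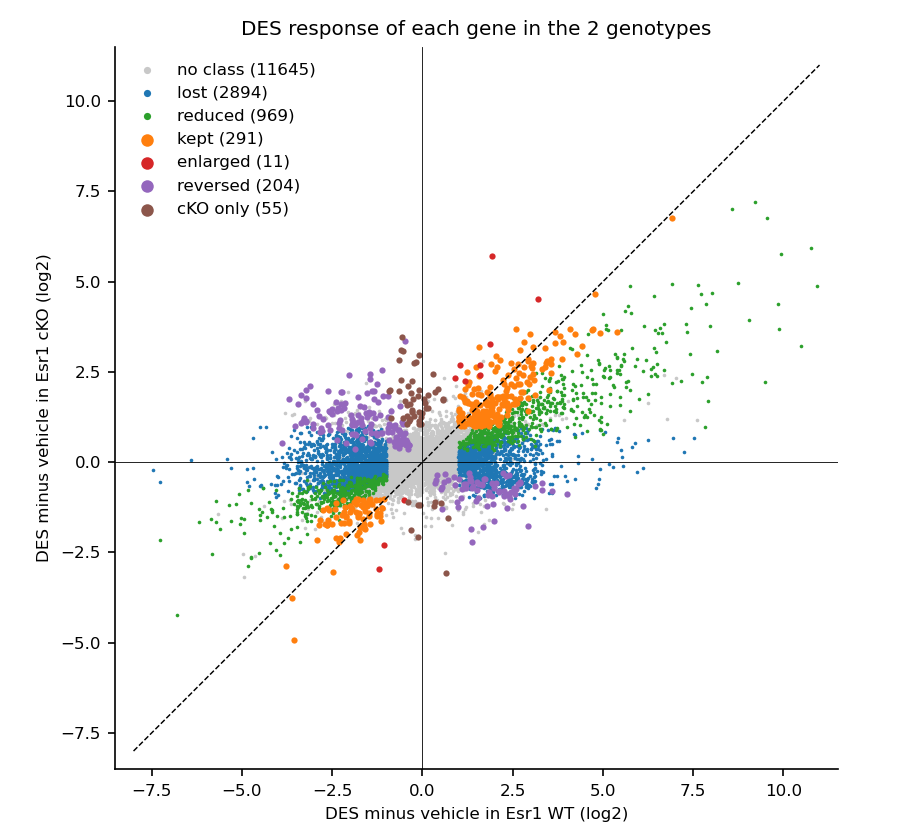
Each point is a gene, with its DES response in Esr1 WT on the x axis and in Esr1 cKO on the y axis, both as log2 differences of 4 and 4 arrays. The dashed line marks equal responses, and most coloured genes lie between it and the horizontal line at 0, with 2894 lost, 969 reduced and 291 kept responses.

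Genes were put into response classes by the calls of the wild-type response, the cKO response and the interaction. A response was lost where wild type changed at least 2-fold, the interaction was called toward 0, and cKO was neither called nor changed 2-fold. It was reduced where cKO was called in the same direction but the interaction was called toward 0, and kept where both genotypes changed at least 2-fold the same way with no call in the interaction. It was enlarged where both were called the same way, cKO at least 2-fold, and the interaction was called away from 0. It was reversed where the genotypes were called in opposite directions, and seen in cKO only where cKO changed at least 2-fold, wild type was not called and the interaction was. These calls defined the classes, so their sizes are counts with no test. Of the 16069 genes, 2894 (18%) were lost, 969 (6.03%) reduced, 291 (1.81%) kept, 11 (0.0685%) enlarged, 204 (1.27%) reversed and 55 (0.342%) in cKO only. Without vehicle Esr1 WT replicate 4 the same classes held 2351, 1538, 290, 12, 325 and 70 genes, and 335 lost genes became reduced. Lost and reduced genes differ by the call of the cKO response, which holds no wild-type array. A move between them can therefore come with an unchanged cKO response. Of the 5268 genes changed 2-fold in wild type, 955 fell in no class, 716 of them with no call in the interaction or in cKO.

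The promoter windows of these genes were read for short motifs, from 250 bases before to 50 bases after the annotated start in RefSeq (build GRCm38.p6). A window was found for 12865 of the 16069 genes. The motifs were the estrogen response element (GGTCA and TGACC with 3 bases between them), its single arm GGTCA, the AP-1 motif TGANTCA, the forkhead motif TGTTTNC and the GC box GGGCGG, on both strands, where every full element also holds single arms. The full element was in 5 of the 12865 windows. Of these, 4 belonged to lost genes, namely 4933406B17Rik, Evx2, Tex45 and Zscan4c, which are named here after their values were seen. Lost genes made up 893 raised and 1362 lowered of the 12865 windows, and 5 matches are too few to compare classes. The single arm was in 38.1% of all windows, in 43.9% of lost raised genes, 36.6% of lost lowered genes, 40.3% of reduced raised genes and 48.5% of kept raised genes. It was in 33.0% of reduced lowered, 44.6% of kept lowered, 45.2% of reversed raised and 41.6% of reversed lowered genes. The AP-1 motif was in 5.79% of all windows, in 8.96% of lost raised, 8.95% of reduced raised and 13.5% of kept raised genes (22 of 163 windows), and in 14.5% of reversed raised genes (9 of 62). Among lowered genes it was in 5.87% of lost, 5.26% of reduced, 10.8% of kept (7 of 65) and 12.9% of reversed windows (13 of 101). The GC box was in 57.2% of all windows, in 45.1% of lost raised, 49.4% of reduced raised, 33.7% of kept raised and 19.4% of reversed raised genes. For lowered genes the shares were 49.9% of lost, 57.2% of reduced, 44.6% of kept and 27.7% of reversed windows. The forkhead motif was in 16.3% of all windows and in 14.7% to 22.6% of the windows of the lost, reduced and reversed classes. A match is a run of letters and not a bound site, and the classes also differ in level.

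One window is shown for each of 5 classes to set the kinds of match side by side, chosen after the matches were seen among the genes described next. All are written 5′ to 3′ on the strand of the gene, with every match to a motif in capitals. Scgb3a1 (lost, chr11:49663345-49663644, plus strand) holds a single arm and a forkhead match, and Mmp10 (reduced, chr9:7502092-7502391, plus strand) a forkhead match, an AP-1 match and a single arm in that order. Prok2 (kept, chr6:99726343-99726642, minus strand) and Entpd3 (reversed, chr9:120539568-120539867, plus strand) hold an AP-1 match each. Il20ra (cKO only, chr10:19712337-19712636, plus strand) holds an AP-1 match and a single arm.
Scgb3a1: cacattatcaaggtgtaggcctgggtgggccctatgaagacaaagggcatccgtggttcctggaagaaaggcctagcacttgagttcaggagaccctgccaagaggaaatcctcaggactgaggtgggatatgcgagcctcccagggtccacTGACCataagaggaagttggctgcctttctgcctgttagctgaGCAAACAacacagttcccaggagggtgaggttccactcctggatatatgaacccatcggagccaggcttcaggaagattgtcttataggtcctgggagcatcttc
Mmp10: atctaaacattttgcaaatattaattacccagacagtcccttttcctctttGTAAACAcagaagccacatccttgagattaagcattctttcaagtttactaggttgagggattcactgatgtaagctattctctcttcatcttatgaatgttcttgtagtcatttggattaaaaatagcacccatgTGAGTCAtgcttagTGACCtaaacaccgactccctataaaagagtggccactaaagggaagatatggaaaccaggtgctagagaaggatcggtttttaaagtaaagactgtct
Prok2: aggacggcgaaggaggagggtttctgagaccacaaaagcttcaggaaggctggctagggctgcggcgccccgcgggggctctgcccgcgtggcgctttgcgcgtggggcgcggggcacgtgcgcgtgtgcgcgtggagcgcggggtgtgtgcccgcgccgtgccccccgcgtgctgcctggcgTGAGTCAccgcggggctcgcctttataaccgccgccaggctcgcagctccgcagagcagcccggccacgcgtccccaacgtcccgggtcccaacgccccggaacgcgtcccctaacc
Entpd3: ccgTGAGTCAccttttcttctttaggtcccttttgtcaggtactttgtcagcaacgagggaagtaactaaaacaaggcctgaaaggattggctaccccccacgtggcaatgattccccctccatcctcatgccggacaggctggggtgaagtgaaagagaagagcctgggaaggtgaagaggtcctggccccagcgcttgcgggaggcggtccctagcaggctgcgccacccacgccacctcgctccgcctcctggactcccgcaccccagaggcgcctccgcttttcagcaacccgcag
Il20ra: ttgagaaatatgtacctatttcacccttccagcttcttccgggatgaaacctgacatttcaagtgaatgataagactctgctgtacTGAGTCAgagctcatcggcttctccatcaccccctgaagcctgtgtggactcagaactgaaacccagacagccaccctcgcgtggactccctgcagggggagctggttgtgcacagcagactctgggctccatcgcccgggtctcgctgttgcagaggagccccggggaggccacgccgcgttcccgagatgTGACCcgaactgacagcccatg

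The lost class held 1144 genes that rose (7.12% of those tested) and 1750 that fell (10.9%) in wild type. The raised genes named here, those of largest interaction whose arrays did not overlap, encode secreted or membrane proteins. Mfsd4a, a member of a family of membrane transporters, had the largest interaction among the 467 raised lost genes that met the naming rule. The levels were -3.90, -3.10, -3.61 and -4.03 in vehicle Esr1 WT, -3.68, -2.72, -3.45 and -3.64 in vehicle Esr1 cKO, 3.79, 3.92, 3.19 and 3.46 in DES Esr1 WT and -3.53, -2.96, -2.91 and -3.01 in DES Esr1 cKO. Its 4 DES Esr1 WT arrays lay far above the other 12, which formed a single range. The response was 7.25 (SE 0.25) in wild type and 0.27 (SE 0.25) in cKO, with an interaction of -6.97 (SE 0.35, limma adjusted p = 9.65e-09). All 3 features of Mfsd4a gave a negative interaction, from -6.97 to -1.22. Scgb3a1, a small secreted secretoglobin known from airway epithelium, rose by 7.53 in wild type and had a cKO response of 0.66 (interaction -6.88, adjusted p = 4.11e-06). Slco4a1, an organic anion transporter, rose by 6.93 in wild type and had a cKO response of 0.67 (interaction -6.26, adjusted p = 2.4e-07). Muc5b, a gel-forming mucin, rose by 5.79 in wild type and had a cKO response of 0.43 (interaction -5.36, adjusted p = 1.82e-06). None of these 4 differed between genotypes after vehicle by the test, with differences from 0.04 to 0.40.

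Among the 750 lowered lost genes that met the naming rule the largest interaction was that of Lgr5, a receptor for R-spondins that marks stem cells of several epithelia and is a target of Wnt signalling. In vehicle Esr1 WT the 4 levels were 0.22, 0.52, 0.46 and 1.35, in vehicle Esr1 cKO -0.41, 0.51, 0.56 and 0.38, in DES Esr1 WT -6.30, -6.70, -6.37 and -7.12 and in DES Esr1 cKO 0.28, -0.52, -0.60 and -0.28. DES Esr1 WT alone was low, and the DES Esr1 cKO arrays overlapped those of both vehicle groups. It fell by 7.26 (SE 0.28) in wild type, the cKO response was -0.54 (SE 0.28), and the interaction was 6.72 (SE 0.40, limma adjusted p = 4.8e-08). G6pc2, a glucose-6-phosphatase known from pancreatic islets, fell by 6.41 in wild type with a cKO response of 0.06 (interaction 6.47, adjusted p = 3.01e-09). Them5, a thioesterase of acyl-CoA, fell by 4.69 with a cKO response of 0.68 (interaction 5.36, adjusted p = 3.22e-05). Chst9, a sulfotransferase that modifies sugar chains, fell by 5.29 with a cKO response of -0.17 (interaction 5.13, adjusted p = 1.64e-07). Of all 2894 lost genes, 898 were also called between genotypes after vehicle, 45.1% lay in the lowest quartile by level, and 484 had a group dim on all 4 arrays, which means under the 30th percentile of each array. The 8 lost genes named here have none of these dim groups and no vehicle call. Not called in cKO does not mean a response of 0, and the median cKO response of the lost lowered genes was 9.51% of the wild-type response.

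The reduced class held 581 raised (3.62%) and 388 lowered genes (2.41%), and its median cKO response was 41.3% of the wild-type response. Aoc1, the diamine oxidase that degrades histamine and putrescine, had the largest interaction among the 388 raised reduced genes that met the naming rule. Levels of -5.46, -5.75, -5.67 and -3.40 were read in vehicle Esr1 WT, -5.51, -5.44, -4.03 and -5.88 in vehicle Esr1 cKO, 5.73, 5.69, 5.22 and 5.06 in DES Esr1 WT and -2.81, -1.15, -1.74 and -2.27 in DES Esr1 cKO. The DES Esr1 cKO arrays lay above all vehicle arrays and below all DES Esr1 WT arrays. The rise was 10.49 (SE 0.51) in wild type and 3.22 (SE 0.51, adjusted p = 0.000492) in cKO, with an interaction of -7.27 (SE 0.72, limma adjusted p = 3.03e-06). Lcn2, the siderophore-binding lipocalin of innate defence, rose by 10.92 in wild type and 4.88 in cKO (interaction -6.04, adjusted p = 7.04e-07). Arg1, an arginase, rose by 9.87 and 3.68 (interaction -6.19, adjusted p = 6.35e-07). Hgfac, a protease that activates hepatocyte growth factor, rose by 7.90 and 1.69 (interaction -6.21, adjusted p = 6.86e-08). On the log2 scale the cKO rise of these 4 genes ran from 21.4% of the wild-type rise for Hgfac to 44.7% for Lcn2.

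Among the reduced falls, Lef1 encodes a transcription factor of the Wnt pathway. Lef1 stood at 0.83, 0.75, 0.73 and 2.30 in vehicle Esr1 WT, 1.17, 0.93, 0.82 and 0.86 in vehicle Esr1 cKO, -4.89, -4.33, -4.63 and -4.37 in DES Esr1 WT and -0.10, 0.16, -0.24 and -0.36 in DES Esr1 cKO. The DES Esr1 cKO arrays lay between the vehicle arrays and the DES Esr1 WT arrays, with no overlap on either side. Lef1 fell by 5.70 (SE 0.28) in wild type and by 1.08 (SE 0.28) in cKO, and the interaction was 4.62 (limma adjusted p = 8.46e-07). Mmp10, a stromelysin that degrades matrix, fell by 6.20 and 1.65 (interaction 4.55, adjusted p = 1.5e-05). Ptchd4, a protein with a patched domain, fell by 5.08 and 0.89 (interaction 4.18, adjusted p = 1.69e-07). Hhatl, a relative of the Hedgehog acyltransferase, fell by 5.37 and 1.19 (interaction 4.18, adjusted p = 3.99e-06). Of the 969 reduced genes, 944 had no call between genotypes after vehicle and 940 were called between genotypes after DES, so this class rests on the DES groups.

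**Figure D2:**
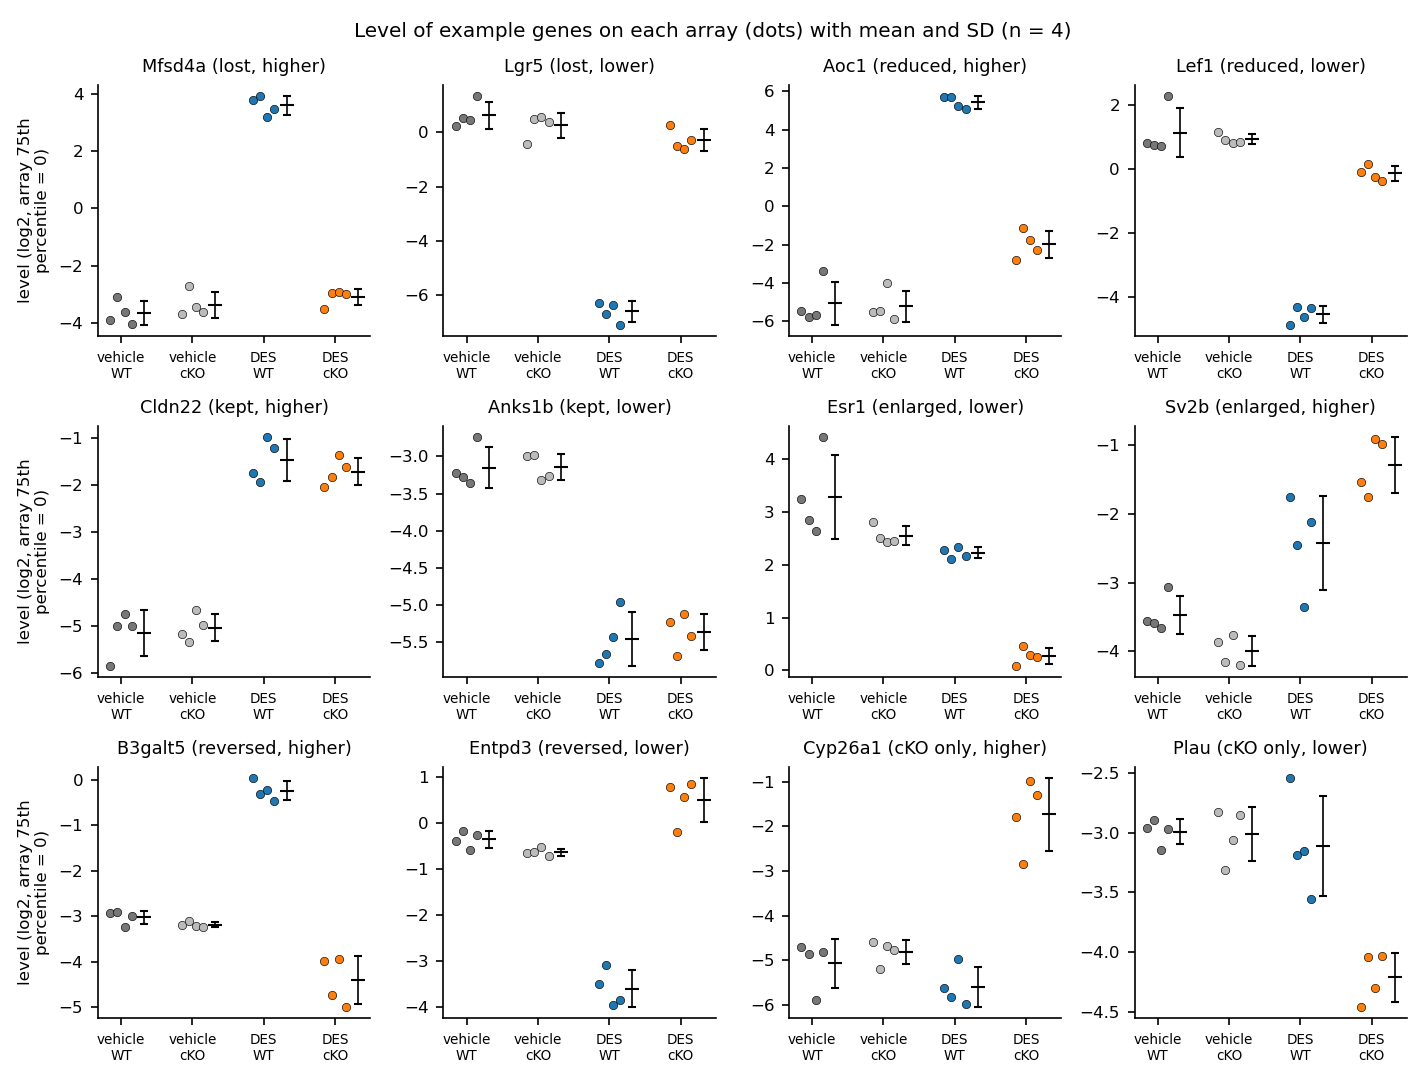
The level of 12 genes is shown on each of the 16 arrays (dots, log2 with the array's 75th percentile at 0), with the mean and SD of the 4 arrays beside them. Mfsd4a and Lgr5 changed in DES Esr1 WT alone, Aoc1 and Lef1 changed less in DES Esr1 cKO, and Cldn22 and Anks1b reached like levels in both DES groups.

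The kept class held 210 raised (1.31%) and 81 lowered genes (0.504%). The interaction of a kept gene was not called, which does not show equal responses, and the 95% interval lay within a 2-fold difference either way for 83 of the 291. Cldn22, a claudin of tight junctions, rose in both genotypes. Its level was -5.84, -5.00, -4.73 and -4.99 on the 4 vehicle Esr1 WT arrays, -5.15, -5.33, -4.65 and -4.97 on those of vehicle Esr1 cKO, -1.75, -1.93, -0.97 and -1.20 on those of DES Esr1 WT and -2.05, -1.82, -1.37 and -1.61 on those of DES Esr1 cKO. The 2 DES groups overlapped and lay above both vehicle groups. It rose by 3.68 (SE 0.26) in wild type and 3.31 (SE 0.26) in cKO, and the interaction was -0.36 (95% interval -1.14 to 0.42). Prok2, the secreted ligand prokineticin 2, rose by 3.66 and 3.61, with an interval of the interaction from -1.95 to 1.85. This holds for the feature used here, since the 2 features of Prok2 gave interactions of -0.05 and -3.06. Myl7, a myosin light chain known from the cardiac atrium, rose by 3.81 and 3.49, with an interval from -1.34 to 0.69. Alox15, a lipoxygenase of fatty acids, rose by 3.40 and 3.17, with an interval from -1.52 to 1.04. None of these 4 intervals lay within a 2-fold difference. Of these 4 genes, Myl7 alone was called between genotypes after DES (difference -0.96, limma adjusted p = 0.0336). The interaction of Myl7 was called with array weights (limma adjusted p = 0.0215). The level of vehicle Esr1 WT replicate 4 lay apart from its group for Prok2, Myl7 and Alox15, at -3.45 against -6.14, -6.58 and -6.38 for Prok2 and -6.39 against -4.20, -4.63 and -4.30 for Alox15. Without it the interactions moved from -0.05 to -0.78 for Prok2, from -0.33 to -0.74 for Myl7 and from -0.24 to 0.27, the other sign, for Alox15.

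Among the kept falls, Anks1b encodes a scaffold protein of synapses. The levels were -3.23, -3.28, -3.36 and -2.74 in vehicle Esr1 WT, -3.00, -2.98, -3.32 and -3.27 in vehicle Esr1 cKO, -5.78, -5.66, -5.43 and -4.96 in DES Esr1 WT and -5.23, -5.68, -5.11 and -5.42 in DES Esr1 cKO. Both DES groups lay under both vehicle groups and overlapped each other. Anks1b fell by 2.30 (SE 0.19) in wild type and by 2.22 (SE 0.19) in cKO, and the interval of the interaction ran from -0.49 to 0.66. Efhd1, a calcium-binding protein of mitochondria, fell by 2.12 and 1.99 (interval -0.72 to 0.99). Hoxd4, a homeobox factor, fell by 2.86 and 1.75 (interval -0.23 to 2.46), and its interaction was called with array weights (limma adjusted p = 0.0488). Without vehicle Esr1 WT replicate 4 the interaction was 0.59 instead of 1.11 for Hoxd4, 0.38 instead of 0.13 for Efhd1 and -0.05 instead of 0.09 for Anks1b. Gabra2, a subunit of the GABA receptor, fell by 1.81 and 2.02 in the feature used here. Only 1 of its 3 features gave an interaction of that sign, and leaving out vehicle Esr1 cKO replicate 1 or DES Esr1 WT replicate 4 selected another feature with an interaction of 1.23 or 1.27. The kept class was weak in level, with 53.6% of its genes in the lowest quartile, and it held 135 genes when that quartile was left out of the fit.

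The enlarged class held 8 raised (0.0498%) and 3 lowered genes (0.0187%). Of these, Esr1 and Sv2b were the ones named here. Sv2b encodes a protein of synaptic vesicles. In vehicle Esr1 WT the 4 levels were -3.55, -3.59, -3.66 and -3.06, in vehicle Esr1 cKO -3.86, -4.16, -3.75 and -4.19, in DES Esr1 WT -1.75, -2.45, -3.35 and -2.12 and in DES Esr1 cKO -1.53, -1.75, -0.91 and -0.98. The lowest DES Esr1 cKO array and the highest DES Esr1 WT array both stood at -1.75, and the other arrays of DES Esr1 cKO lay above them. It rose by 1.05 (SE 0.29) in wild type and 2.70 (SE 0.29) in cKO (interaction 1.65, SE 0.41, limma adjusted p = 0.00515). With all 32 arrays the interaction of Sv2b was 0.83 and not called (adjusted p = 0.148), and both Sv2b and Esr1 fell in the kept class. Of the 11 genes, 8 lay in the lowest quartile by level.

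The reversed class held 72 genes raised (0.448%) and 132 lowered (0.821%) in wild type. B3galt5, a galactosyltransferase of glycan chains, rose in wild type and fell in cKO. Levels of -2.94, -2.91, -3.23 and -3.00 were read in vehicle Esr1 WT, -3.19, -3.11, -3.20 and -3.25 in vehicle Esr1 cKO, 0.04, -0.32, -0.22 and -0.47 in DES Esr1 WT and -3.99, -4.72, -3.93 and -4.99 in DES Esr1 cKO. The vehicle groups overlapped, DES Esr1 WT lay above them and DES Esr1 cKO below them. Its response was 2.78 (SE 0.20) in wild type and -1.22 (SE 0.20, adjusted p = 0.000715) in cKO, with an interaction of -4.0 (limma adjusted p = 1.69e-07). Sox9, a transcription factor of epithelial progenitors and glands, showed the same pattern. Sox9 stood at -0.66, -1.25, -1.27 and -0.29 in vehicle Esr1 WT, -0.95, -1.29, -1.0 and -1.05 in vehicle Esr1 cKO, 1.63, 1.44, 1.5 and 1.29 in DES Esr1 WT and -2.14, -2.46, -2.57 and -2.18 in DES Esr1 cKO. Its responses were 2.33 and -1.27 (interaction -3.60, adjusted p = 2.92e-07), and 12 of its 13 features gave an interaction of the same sign. Entpd3, a membrane enzyme that splits extracellular nucleotides, went the other way. Its level was -0.40, -0.19, -0.59 and -0.26 on the 4 vehicle Esr1 WT arrays, -0.65, -0.64, -0.54 and -0.72 on those of vehicle Esr1 cKO, -3.50, -3.07, -3.95 and -3.84 on those of DES Esr1 WT and 0.76, -0.20, 0.56 and 0.85 on those of DES Esr1 cKO. DES Esr1 WT lay below every other array, and 3 of the 4 DES Esr1 cKO arrays lay above all vehicle arrays. Its responses were -3.23 (SE 0.22) and 1.13 (SE 0.22), with an interaction of 4.36 (adjusted p = 1.68e-07).

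Adra2c, an adrenergic receptor, had responses of -2.58 in wild type and 1.41 in cKO (interaction 4.00, limma adjusted p = 5.7e-05). Gja3, a connexin known from the lens, had responses of -1.11 and 2.55 (interaction 3.66, adjusted p = 4.02e-06). For 140 of the 204 reversed genes, the genotypes were also called apart after vehicle, and 154 lay in the lowest quartile by level. Hsd3b4, a steroid-metabolising enzyme of the 3-beta-hydroxysteroid dehydrogenase family, is such a gene. The levels were -6.13, -5.56, -5.90 and -6.58 in vehicle Esr1 WT, -2.92, -2.73, -2.85 and -2.56 in vehicle Esr1 cKO, -2.57, -2.87, -2.74 and -2.75 in DES Esr1 WT and -3.37, -3.41, -3.31 and -3.30 in DES Esr1 cKO. The vehicle Esr1 WT arrays were the lowest, and no array of the other 3 groups lay under -3.41. Its interaction of -3.89 (adjusted p = 5.62e-08) was made mostly by a difference of 3.27 between genotypes after vehicle, against -0.62 after DES. Sfrp5, a secreted inhibitor of Wnt ligands, had an interaction of -3.29 with a difference of 2.66 after vehicle. Olfr975, an olfactory receptor gene, had an interaction of 3.95 with a difference of -2.88 after vehicle. Hsd3b4 and Sfrp5 were lost and not reversed with quantile normalization, with median scaling and with all 32 arrays, and Adra2c and Olfr975 had no class with all 32 arrays. Of the reversed genes, 64 had no call after vehicle, B3galt5, Sox9, Entpd3, Adra2c and Gja3 among them, and 53 genes were reversed when the lowest quartile was left out.

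The cKO-only class held 45 genes that rose (0.28%) and 10 that fell (0.0622%) in cKO. Cyp26a1, the enzyme that breaks down retinoic acid, rose in cKO without a call in wild type. In vehicle Esr1 WT the 4 levels were -4.71, -4.86, -5.90 and -4.82, in vehicle Esr1 cKO -4.60, -5.19, -4.68 and -4.78, in DES Esr1 WT -5.62, -5.81, -4.97 and -5.99 and in DES Esr1 cKO -1.79, -2.85, -0.99 and -1.31. All 4 DES Esr1 cKO arrays lay above the other 12. The response was 3.08 (SE 0.36, adjusted p = 2.99e-05) in cKO and -0.53 (SE 0.36) in wild type, with an interaction of 3.61 (limma adjusted p = 7.29e-05). Il20ra, a subunit of the receptors of interleukin 20, had responses of 3.46 in cKO and -0.56 in wild type (interaction 4.02, adjusted p = 0.000324). Dnali1, a dynein light chain of cilia, had responses of 2.00 and -0.91 (interaction 2.91, adjusted p = 0.0071), with DES Esr1 cKO replicate 1 at -2.12 against a highest level of -4.45 on the other 3 arrays of its group. Tmprss13, a membrane serine protease, had responses of 1.69 and -0.48 (interaction 2.17, adjusted p = 0.000174), a call lost with all 32 arrays (adjusted p = 0.0958).

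The named falls of this class had interactions of smaller size than its named rises. Plau, the urokinase that activates plasminogen, had a cKO response of -1.20 and a wild-type response of -0.12. Levels of -2.96, -2.90, -3.14 and -2.97 were read in vehicle Esr1 WT, -2.83, -3.31, -3.06 and -2.85 in vehicle Esr1 cKO, -2.54, -3.19, -3.15 and -3.55 in DES Esr1 WT and -4.46, -4.04, -4.30 and -4.04 in DES Esr1 cKO. The DES Esr1 cKO arrays lay below all others, while the DES Esr1 WT arrays spread on both sides of the vehicle arrays. Its interaction was -1.08 (SE 0.26, limma adjusted p = 0.00468). Il1f6, the cytokine interleukin 36 alpha, had responses of -1.87 in cKO and -0.33 in wild type (interaction -1.55, adjusted p = 0.00937). Krt75, a keratin of hair follicles, had responses of -1.17 and -0.08 (interaction -1.09, adjusted p = 5.87e-05), and it was called between genotypes after vehicle (difference 0.72, adjusted p = 0.000226). Of the 55 genes, 43 lay in the lowest quartile by level.

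**Figure D3:**
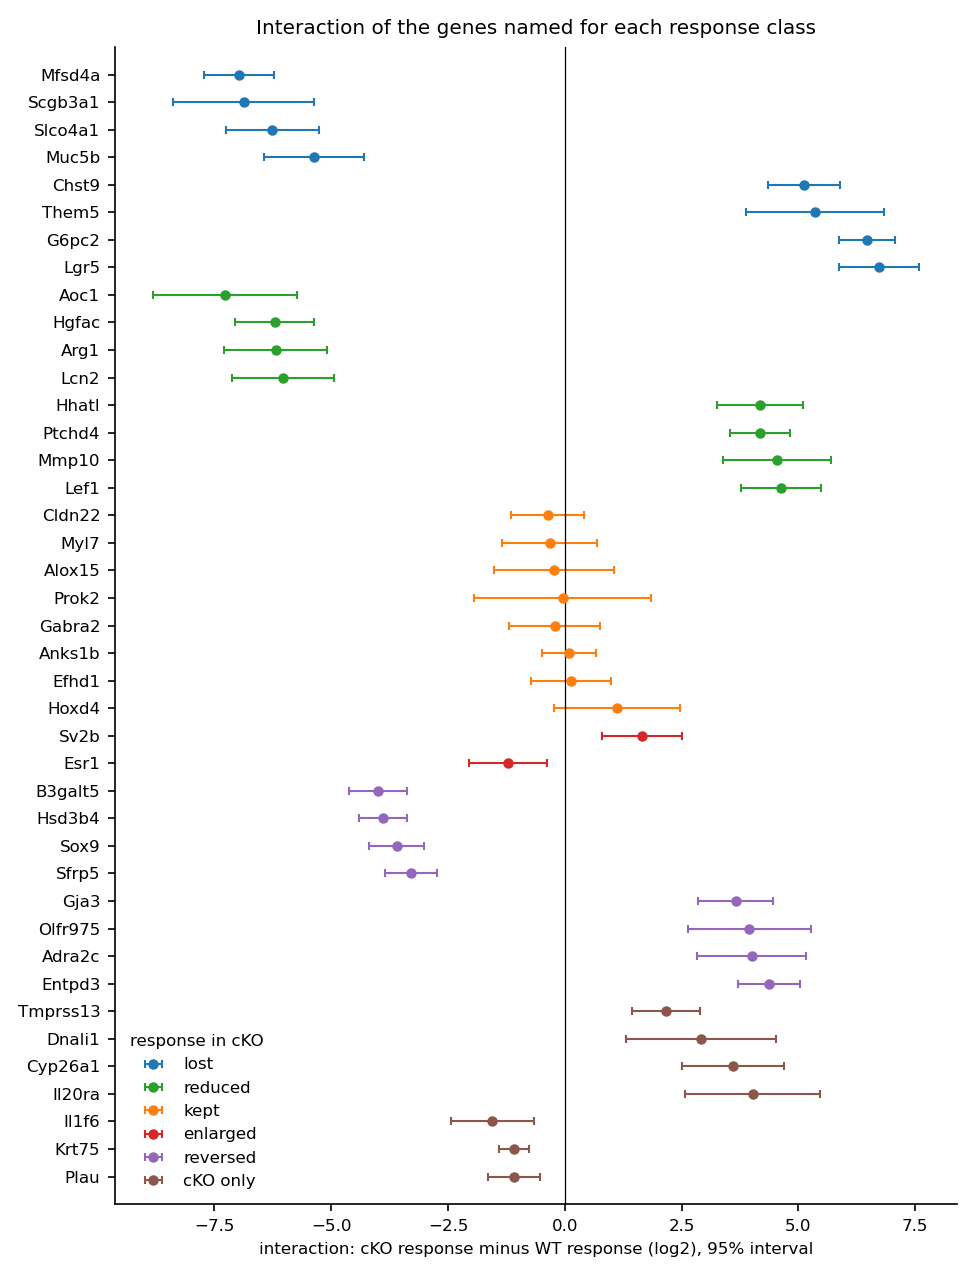
Interaction of the genes named for each response class (dots, cKO response minus wild-type response in log2) with its 95% interval from limma over 16 arrays. The intervals of the 8 kept genes include 0, and those of all other genes shown do not.

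Known estrogen-responsive genes of the uterus, the first of the gene lists, were more often reduced than lost. Of 32 measured members of this list, 24 rose and 4 fell in wild type, and 18 rose and 2 fell in cKO. The interaction was lower for 21 and higher for 4, against 16% and 20.5% of all genes, and 17 members were reduced, 6 lost and 1 kept. The median response was 3.39 in wild type and 1.51 in cKO. The shares over all genes beside which the list counts below stand are 25.8% higher and 35.2% lower in wild type, 8.49% and 5.3% in cKO, and 20.5% and 16% in the interaction, with median responses of -0.14 and -0.05. For the class counts of this and the other lists, the shares over all genes are 18% lost, 6.03% reduced, 1.81% kept and 1.27% reversed. Ltf, the iron-binding lactotransferrin, is the classical example. Ltf stood at -3.57, -3.04, -2.49 and -2.16 in vehicle Esr1 WT, -3.27, -2.86, -2.78 and -3.46 in vehicle Esr1 cKO, 7.43, 7.31, 6.92 and 6.81 in DES Esr1 WT and 1.34, 3.67, 2.35 and 3.34 in DES Esr1 cKO. The DES Esr1 cKO arrays lay between vehicle and DES Esr1 WT with no overlap. It rose by 9.93 (SE 0.42) in wild type and 5.77 (SE 0.42) in cKO (interaction -4.17, limma adjusted p = 7.52e-05). Aqp8, a water channel, rose by 9.85 and 4.38 (interaction -5.47, adjusted p = 8.14e-05). Greb1, an estrogen-induced coregulator, rose by 4.89 and 2.75 (interaction -2.14, adjusted p = 0.000488). Pgr, the progesterone receptor, rose by 0.87 (SE 0.15) in wild type, with a cKO response of 0.09 (SE 0.15) and an interaction of -0.78 (adjusted p = 0.0103), a call lost with the mean of its features (adjusted p = 0.0753). Its level was -1.26, -1.40, -1.16 and -1.72 on the 4 vehicle Esr1 WT arrays, -2.06, -2.25, -1.77 and -1.94 on those of vehicle Esr1 cKO, -0.47, -0.65, -0.59 and -0.35 on those of DES Esr1 WT and -2.07, -1.77, -2.15 and -1.69 on those of DES Esr1 cKO. Its wild-type response was under 2-fold, so it has no class, and it was lower in cKO already after vehicle (difference -0.62, adjusted p = 0.0139).

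Secreted defence genes, which protect mucosal surfaces, mostly rose in both genotypes. Of 23 measured, 18 rose and 3 fell in wild type, 13 rose and 2 fell in cKO, and the interaction was lower for 11 and higher for 1 (16% and 20.5% of all genes). Of these genes 8 were reduced, 7 kept and 2 lost, and the median response was 2.46 in wild type and 1.62 in cKO. Chil1, a secreted chitinase-like protein, rose by 6.26 and 1.89 (interaction -4.37, limma adjusted p = 3.99e-06). Pigr, which carries antibodies across epithelium, was dim in both vehicle groups, and it rose by at least 4.93 in wild type, with an adjusted p of 4.31e-06 for the interaction and no bound on its size. Of 18 complement genes (median responses 1.23 in wild type and 0.64 in cKO), 12 rose and 2 fell in wild type, 9 rose and 1 fell in cKO, and the interaction was lower for 5 and higher for 1 (16% and 20.5% of all genes). Cfb, complement factor B, rose by 6.20 and 2.83 (interaction -3.36, adjusted p = 2.98e-06). Cd55, which restrains complement on cells, rose by 3.71 and 1.38 (interaction -2.33, adjusted p = 2.2e-05). Masp1, a protease of the lectin pathway, fell by 3.62 and 0.86 (interaction 2.77, adjusted p = 6.14e-06).

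Most proliferation genes fell in wild type. Of 34 measured, 32 fell in wild type and 0 were called in cKO by limma, where 1 had an unadjusted p under 0.05, and the interaction was higher for 29, against 20.5% of all genes. In this list 26 were lost, and without vehicle Esr1 WT replicate 4 the interaction was higher for 30. The median response was -1.38 in wild type and -0.23 in cKO. The interaction was higher for 21 of them when each array was centred on its median. E2f1, a transcription factor of the entry into S phase, shows the size of these changes. The levels were 0.28, 0.08, 0.11 and 1.31 in vehicle Esr1 WT, -0.43, -0.07, 0.17 and -0.04 in vehicle Esr1 cKO, -1.36, -1.52, -0.91 and -1.58 in DES Esr1 WT and 0.17, 0.07, -0.47 and -0.45 in DES Esr1 cKO. The 4 DES Esr1 WT arrays were the lowest, and the DES Esr1 cKO arrays overlapped the vehicle groups. E2f1 fell by 1.79 (SE 0.26) in wild type with a cKO response of -0.08 (SE 0.26), and the interaction was 1.71 (limma adjusted p = 0.00202, the same sign on all 11 features). E2f2, its relative, had an interaction of 1.63 (adjusted p = 0.00284), and Mcm10, a factor of DNA replication, one of 1.61 (adjusted p = 0.00176). Among 17 cell cycle brakes and stress response genes (median responses -0.08 in wild type and 0.15 in cKO), 8 rose and 6 fell in wild type (3 fell with median scaling), and the interaction was higher for 2 and lower for 3. Without vehicle Esr1 WT replicate 4 it was higher for 4 and lower for 4. Gadd45a, a DNA damage response gene that restrains the cell cycle, rose by 4.60 and 1.71 (interaction -2.88, adjusted p = 4.11e-06). Gadd45g, its relative, rose by 2.45 and 0.68 (interaction -1.77, adjusted p = 0.000167). Trib3, a pseudokinase of the stress response, had an interaction of -1.83, with a genotype difference of 1.16 after vehicle.

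Genes that pattern the Müllerian duct, and Wnt pathway genes, fell mostly in wild type. Of 35 measured, 23 fell and 7 rose in wild type, 7 fell and 6 rose in cKO, and the interaction was higher for 22 and lower for 3 (20.5% and 16% of all genes). In this list 14 were lost, 8 reduced, 3 kept and 1 reversed, and the median response was -1.14 in wild type and -0.07 in cKO. With median scaling the cKO median was 0.02. Wnt7a, a ligand of uterine epithelium that is needed for duct patterning in mice, was lost. In vehicle Esr1 WT the 4 levels were 1.31, 1.15, 1.26 and 1.14, in vehicle Esr1 cKO 1.17, 1.32, 1.39 and 1.46, in DES Esr1 WT -2.04, -1.87, -3.24 and -2.95 and in DES Esr1 cKO 1.64, 1.33, 1.70 and 1.74. The DES Esr1 WT arrays were the lowest and the other 3 groups lay together. Wnt7a fell by 3.74 (SE 0.24) in wild type with a cKO response of 0.27 (SE 0.24), and the interaction was 4.01 (limma adjusted p = 7.04e-07). Axin2, a feedback inhibitor induced by Wnt signals and chosen here after its values were seen, fell by 2.85 in wild type with a cKO response of -1.06 (interaction 1.79, adjusted p = 0.0245), and it was reduced without vehicle Esr1 WT replicate 4.

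Of 12 Hedgehog pathway genes (median responses -0.76 in wild type and -0.09 in cKO), 7 fell and 1 rose in wild type, 1 rose and 1 fell in cKO, and the interaction was higher for 7 and lower for 1 (20.5% and 16% of all genes). It was higher for 4 with median scaling. Without vehicle Esr1 WT replicate 4, 2 rose in wild type, and 2 rose and 2 fell in cKO. Ihh, the Hedgehog ligand of uterine epithelium, belonged to the cKO-only class. Levels of -5.32, -5.49, -6.34 and -4.99 were read in vehicle Esr1 WT, -5.72, -4.49, -6.12 and -6.36 in vehicle Esr1 cKO, -5.89, -5.78, -5.92 and -5.87 in DES Esr1 WT and -4.43, -3.83, -4.53 and -3.43 in DES Esr1 cKO. The DES Esr1 cKO arrays lay above all others except the highest vehicle Esr1 cKO array, which overlapped them. Ihh had a cKO response of 1.62 (SE 0.37) and a wild-type response of -0.33 (SE 0.37), with an interaction of 1.95 (limma adjusted p = 0.00891, the same sign on all 11 features). Nr2f2, a stromal transcription factor downstream of Ihh in mice, fell by 1.60 in wild type with a cKO response of -0.44 (interaction 1.17, adjusted p = 0.00118), and it was reduced instead of lost without vehicle Esr1 WT replicate 4. For Ptch1, the Hedgehog receptor, the feature used here had an interaction of -1.93, but only 5 of 11 features had that sign and the mean of all features gave 0.26, so its direction is not settled.

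Gland and forkhead genes, which include factors of uterine gland formation, had a median response of 1.55 in wild type and 0.31 in cKO over 12 measured genes. The interaction was lower for 7 and higher for 4 (16% and 20.5% of all genes), with 6 lost, 3 reduced and 1 reversed. Foxa2, the forkhead factor of gland epithelium, chosen here after its values were seen, rose in both genotypes. Foxa2 stood at -6.01, -6.29, -5.11 and -6.83 in vehicle Esr1 WT, -7.13, -5.88, -5.92 and -5.03 in vehicle Esr1 cKO, 1.49, 2.27, 2.52 and 1.55 in DES Esr1 WT and -1.93, -1.0, -0.90 and -1.39 in DES Esr1 cKO. The DES Esr1 cKO arrays lay between the vehicle and DES Esr1 WT arrays. It rose by 8.02 (SE 0.43) and 4.69 (SE 0.43), with an interaction of -3.33 (limma adjusted p = 0.00056). Of 30 ion and water transport genes (median responses 1.40 in wild type and 0.24 in cKO), 17 rose and 8 fell in wild type, 10 rose and 3 fell in cKO, and the interaction was lower for 14 and higher for 5 (16% and 20.5% of all genes). Car4, a carbonic anhydrase on the cell surface, fell by 4.95 and 1.96 (interaction 2.99, adjusted p = 0.000127). Aqp4, a water channel dim in vehicle Esr1 WT, had an interaction of -1.15 or lower in the fit of 16 arrays and of 0.51 with all 32 arrays, so its direction is not settled.

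Of 29 steroid and nuclear receptor genes (median responses -0.21 in wild type and 0.05 in cKO), 9 rose and 11 fell in wild type, 2 rose and 1 fell in cKO (5 and 5 without vehicle Esr1 WT replicate 4), and the interaction was higher for 7 and lower for 7. Over all genes 25.8% rose and 35.2% fell in wild type, and the interaction was higher for 20.5% and lower for 16%, so these counts are near the background. Gper1, a membrane receptor reported to respond to estrogens, fell by 1.76 in wild type with a cKO response of 0.44 (interaction 2.19, limma adjusted p = 2.33e-06), and it was reversed instead of lost without vehicle Esr1 WT replicate 4. Ppard, a nuclear receptor of fatty acids, had an interaction of -1.67 (adjusted p = 0.0393), a call lost on leaving out any 1 of 13 of the 16 arrays. Of 13 retinoid metabolism genes (median responses -1.16 in wild type and -0.22 in cKO), 8 fell and 3 rose in wild type, 5 fell and 2 rose in cKO, and the interaction was higher for 8 and lower for 3 (20.5% and 16% of all genes). Crabp1, a carrier of retinoic acid in cells, fell by 5.84 and 2.53 (interaction 3.30, adjusted p = 2.64e-05). Cyp26b1, a retinoic acid hydroxylase, fell by 3.84 and 1.52 (interaction 2.32, adjusted p = 0.00121). Its relative Cyp26a1 was the gene that rose in cKO alone, as described above.

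Of 39 early-response and growth factor genes (median responses -0.51 in wild type and 0.14 in cKO), 11 rose and 19 fell in wild type, 5 rose and 6 fell in cKO, and the interaction was higher for 15 and lower for 7 (20.5% and 16% of all genes). Inhbb, the beta B subunit of activins and inhibins, had the smallest error of the 3 named from this list. Its level was -2.53, -2.85, -2.81 and -2.59 on the 4 vehicle Esr1 WT arrays, -3.09, -3.04, -3.31 and -2.80 on those of vehicle Esr1 cKO, 2.52, 2.93, 2.70 and 2.65 on those of DES Esr1 WT and -0.38, -0.45, -0.58 and -0.66 on those of DES Esr1 cKO. The vehicle arrays, the DES Esr1 cKO arrays and the DES Esr1 WT arrays formed 3 separate ranges. It rose by 5.40 (SE 0.13) and 2.54 (SE 0.13), with an interaction of -2.85 (limma adjusted p = 8.82e-08). Ier3, an early-response gene, rose by 3.71 and 0.90 (interaction -2.81, adjusted p = 7.59e-06). Ereg, an EGF family ligand dim in vehicle Esr1 WT, rose by at least 1.25 in wild type and had an interaction of -1.65 or lower (adjusted p = 6.06e-05), beside a genotype difference of -0.26 after DES.

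Of 22 endoplasmic reticulum folding genes, 13 rose in wild type, against 25.8% of all genes, and 0 were called in cKO by limma, where 1 had an unadjusted p under 0.05, and the interaction was lower for 9, against 16%. The median response was 0.44 in wild type and -0.10 in cKO. Without vehicle Esr1 WT replicate 4, 1 gene rose in cKO and the interaction was lower for 17. Xbp1, a transcription factor of the unfolded protein response, rose by 1.83 in wild type with a cKO response of 0.16 (interaction -1.67, limma adjusted p = 0.0083). Dnajc3, a co-chaperone, rose by 1.81 with a cKO response of 0.25 (interaction -1.56, adjusted p = 1.41e-05). The levels were 0.89, 1.07, 1.05 and 0.83 in vehicle Esr1 WT, 0.67, 0.78, 0.87 and 0.55 in vehicle Esr1 cKO, 3.02, 2.81, 2.59 and 2.66 in DES Esr1 WT and 0.82, 1.23, 1.03 and 0.81 in DES Esr1 cKO. DES Esr1 WT lay above the other 3 groups. Sdf2l1, a chaperone partner, had an interaction of -1.0 (adjusted p = 0.00971), a call lost with all 32 arrays (adjusted p = 0.0661) and with a 2-fold minimum.

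Of 27 interferon-induced genes (median responses 0.63 in wild type and 0.29 in cKO), 16 rose and 2 fell in wild type, 3 rose and 2 fell in cKO, and the interaction was lower for 8 (16% of all genes). Without vehicle Esr1 WT replicate 4, 4 fell in wild type and 10 rose in cKO (6 with median scaling). Without that array the interaction was lower for 11 and higher for 2. Ifit3, an antiviral protein, rose by 3.10 and 1.27 (interaction -1.83, limma adjusted p = 0.00144). Usp18, which removes the ubiquitin-like protein ISG15, rose by 2.34 in wild type with a cKO response of 0.81 (interaction -1.53, adjusted p = 0.00542), and it was reduced instead of lost without vehicle Esr1 WT replicate 4. Mx1, an antiviral GTPase dim in both vehicle groups, rose by at least 1.45 in wild type. Of 27 amino acid transport and redox genes (median responses 0.34 in wild type and 0.11 in cKO), 13 rose and 8 fell in wild type, 5 rose and 3 fell in cKO (7 and 7 without vehicle Esr1 WT replicate 4), and the interaction was lower for 9 and higher for 5 (16% and 20.5% of all genes). With median scaling 4 fell in wild type, and the interaction was lower for all 9 that were called. Gpx1, a glutathione peroxidase, rose by 2.16 in wild type with a cKO response of 0.26 (interaction -1.90, adjusted p = 2.42e-06). Sat1, which acetylates polyamines, rose by 2.44 and 0.55 (interaction -1.89, adjusted p = 3.45e-06). Of 18 cholesterol and fatty acid synthesis genes (median responses -0.06 in wild type and -0.30 in cKO), 6 rose and 5 fell in wild type, 1 rose and 1 fell in cKO (4 fell without vehicle Esr1 WT replicate 4), and the interaction was higher for 3 and lower for 6 (20.5% and 16% of all genes). With median scaling 2 fell in wild type, and the interaction was higher for 1. Scd1, a fatty acid desaturase, fell by 2.17 in wild type with a cKO response of -0.57 (interaction 1.59, adjusted p = 0.0028). For the sterol synthesis enzymes Fdft1 and Fdps only 1 of 2 features each gave the sign of the interactions used here, -1.30 and -1.27. The call of Fdft1 was lost without any 1 of 6 arrays and that of Fdps with all 32 arrays (adjusted p = 0.0702), both were lost with the mean of the features, and Fdft1 went from lost to no class without vehicle Esr1 WT replicate 4.

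**Figure D4:**
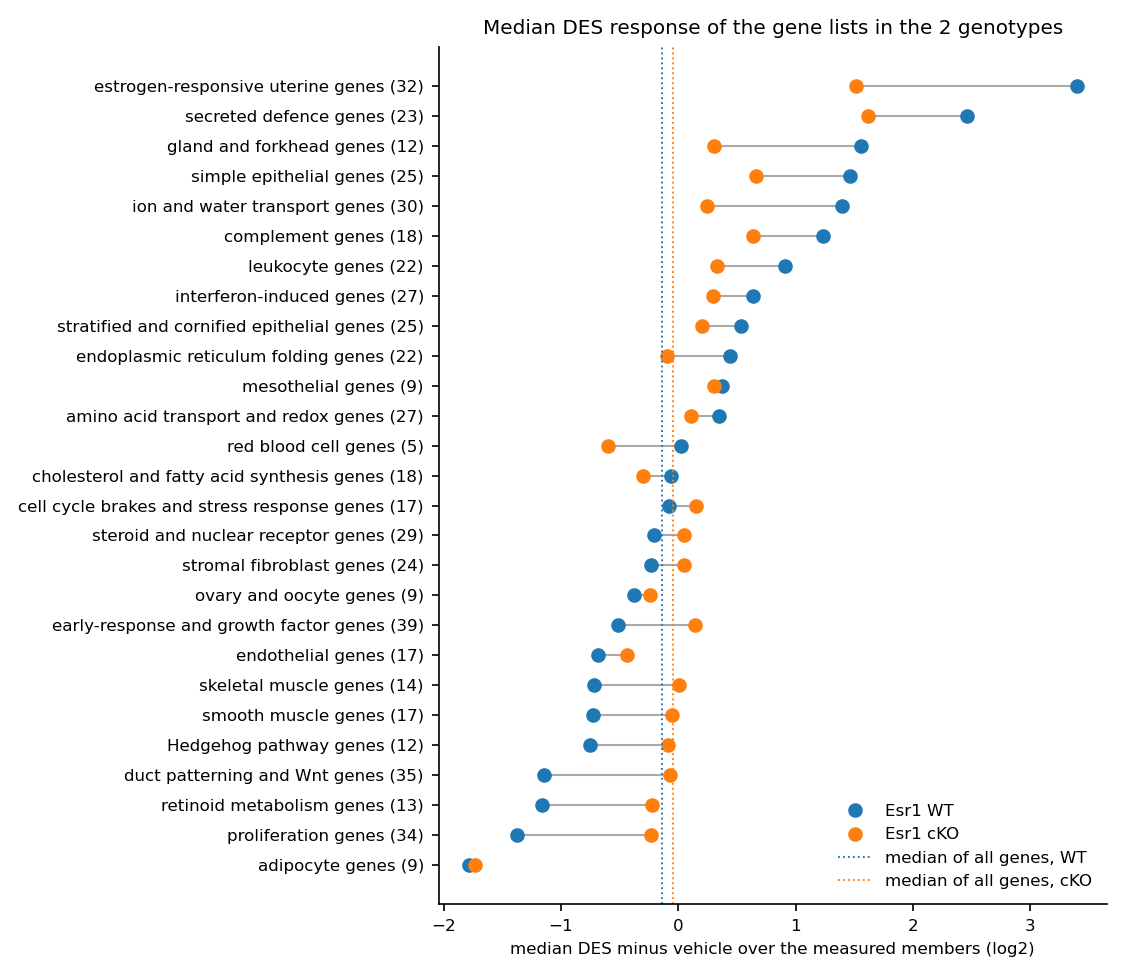
Median DES response over the measured members of each gene list (number in brackets) in Esr1 WT and Esr1 cKO, in log2, with the median of all genes as dotted lines. The cKO median lies nearer 0 than the wild-type median for most lists, as with 1.51 against 3.39 for estrogen-responsive genes and -0.23 against -1.38 for proliferation genes.

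Cell type markers moved with these differences, and their part in the results was not tested. Of 25 simple epithelial genes (median responses 1.46 in wild type and 0.66 in cKO), 21 rose and 3 fell in wild type, 15 rose and 1 fell in cKO, and the interaction was lower for 14 and higher for 3 (16% and 20.5% of all genes). Their summed level on the linear scale, with the array's 75th percentile as 1, was 460 to 592 in DES Esr1 WT, 218 to 301 in DES Esr1 cKO, 167 to 309 in vehicle Esr1 WT and 161 to 178 in vehicle Esr1 cKO, with no member dim in any group. Muc1, an epithelial membrane mucin, rose by 4.67 and 1.62 (interaction -3.05, limma adjusted p = 0.000345). Cldn6, a claudin of immature epithelium, fell by 5.59 and 1.84 (interaction 3.75, adjusted p = 6.63e-07). Ovol1, an epithelial transcription factor, fell by 2.12 in wild type with a cKO response of 0.31 (interaction 2.43, adjusted p = 0.000368).

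Of 25 stratified and cornified epithelial genes (median responses 0.53 in wild type and 0.20 in cKO), 10 rose and 10 fell in wild type, 9 rose and 3 fell in cKO, and the interaction was higher for 9 and lower for 7 (20.5% and 16% of all genes). Their summed level was 193 to 255 in DES Esr1 WT, 108 to 119 in DES Esr1 cKO, 93.7 to 200 in vehicle Esr1 WT and 88.7 to 105 in vehicle Esr1 cKO, and at most 4 members were dim in a group. Without vehicle Esr1 WT replicate 4, 5 of these genes fell in cKO. Sprr2f, a small proline-rich protein of the cell envelope that estrogens induce in mouse uterus, rose by 8.16 and 3.08 (interaction -5.08, limma adjusted p = 2.13e-06). Trp63, the transcription factor of basal epithelial cells, fell by 3.68 in wild type with a cKO response of -0.53 (interaction 3.15, adjusted p = 3.99e-06). In vehicle Esr1 WT the 4 levels were -2.57, -1.94, -3.16 and -2.41, in vehicle Esr1 cKO -3.24, -3.12, -3.00 and -3.08, in DES Esr1 WT -6.36, -5.85, -6.62 and -5.97 and in DES Esr1 cKO -3.75, -3.42, -3.42 and -3.99. DES Esr1 WT was lowest, and the DES Esr1 cKO arrays lay just under the vehicle arrays with no overlap. Ivl, involucrin of the cornified envelope, was dim in vehicle Esr1 cKO, and its interaction was at least 1.27 (adjusted p = 0.00169). It was called lower in cKO than in wild type after vehicle (limma adjusted p = 0.00137). After DES its genotype difference was 0.63 and not called (adjusted p = 0.333).

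Of 17 smooth muscle genes (median responses -0.72 in wild type and -0.06 in cKO), 14 fell in wild type (9 with median scaling) and 2 in cKO, and the interaction was higher for 8 (20.5% of all genes). Their summed level was 427 to 475 in DES Esr1 WT, 496 to 602 in DES Esr1 cKO, 592 to 933 in vehicle Esr1 WT and 526 to 584 in vehicle Esr1 cKO. Myocd, the coactivator of smooth muscle genes, fell by 2.44 and 0.77 (interaction 1.67, limma adjusted p = 0.000153). Itga8, an integrin subunit, fell by 1.14 in wild type with a cKO response of 0.06 (interaction 1.20, adjusted p = 0.000309), and it went from lost to no class without vehicle Esr1 WT replicate 4. Ldb3, a protein of the Z-disc, had the sign of its interaction of 2.88 on 1 of 3 features, and the mean of its features gave -0.04.

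Of 24 stromal fibroblast genes (median responses -0.23 in wild type and 0.05 in cKO), 6 rose and 9 fell in wild type and 4 rose and 1 fell in cKO (11 rose in wild type with median scaling), and the interaction was called for 5, higher for 3 and lower for 2 (20.5% and 16% of all genes). Without vehicle Esr1 WT replicate 4, 8 rose and 6 fell in cKO, and the interaction was higher for 8 and lower for 4. Their summed level was 934 to 968 in DES Esr1 WT, 848 to 988 in DES Esr1 cKO, 710 to 885 in vehicle Esr1 WT and 651 to 770 in vehicle Esr1 cKO. In both genotypes the sum was thus higher after DES on every array, while more members were called lower than higher in wild type. Ogn, a small proteoglycan, rose by 3.64 and 1.42 (interaction -2.22, limma adjusted p = 0.000305). Thy1, a surface protein of fibroblasts, fell by 2.17 in wild type with a cKO response of -0.28 (interaction 1.89, adjusted p = 0.000216). Col6a1, a chain of collagen VI, rose by 1.72 in wild type with a cKO response of 0.54 (interaction -1.17, adjusted p = 0.028, lost without any 1 of 5 arrays and with quantile normalization), and it was reduced instead of lost without vehicle Esr1 WT replicate 4.

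Of 22 leukocyte genes (median responses 0.91 in wild type and 0.33 in cKO), 12 rose and 5 fell in wild type, 8 rose and 4 fell in cKO, and the interaction was higher for 2 and lower for 5 (20.5% and 16% of all genes), the latter 8 with median scaling. Their summed level was 39.7 to 52.1 in DES Esr1 WT, 28.6 to 46 in DES Esr1 cKO and 14.7 to 22.6 in both vehicle groups together. Itgam, an integrin of myeloid cells, rose by 6.5 and 2.38 (interaction -4.12, limma adjusted p = 1.93e-07). The T cell genes Cd3e and Cd4 had interactions of -2.55 and -1.87 beside genotype differences of 2.38 and 1.70 after vehicle, and the mean of the features of Cd4 gave 0.84. The call of Cd3e was lost with all 32 arrays (adjusted p = 0.15). The call of Cd4 was lost without any 1 of 12 arrays, where the interaction was as small as -0.85 without vehicle Esr1 WT replicate 1. Of 17 endothelial genes (median responses -0.69 in wild type and -0.44 in cKO), 2 rose and 10 fell in wild type and 1 rose and 2 fell in cKO (11 fell without vehicle Esr1 WT replicate 4), and the interaction was higher for 1 and lower for 1, namely Sox17 (1.57, adjusted p = 1.91e-05) and Sox7 (-1.30, adjusted p = 6.18e-05), both transcription factors of vessels. Without that array the interaction was higher for 2 and lower for 1.

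The interaction was called by limma for 0 of 5 red blood cell genes (0 at an unadjusted p under 0.05), 4 of 9 ovary and oocyte genes, 2 of 9 mesothelial genes, 2 of 9 adipocyte genes and 7 of 14 skeletal muscle genes, against 36.5% of all genes. Ddx4, an RNA helicase of germ cells, rose in both genotypes, by 6.64 and 3.57 (interaction -3.07, limma adjusted p = 0.000253). Zp1 and Fshr, genes of the oocyte coat and of the follicle, had interactions of -2.88 and -3.10, with genotype differences of 2.14 and 2.06 after vehicle. Wt1, a transcription factor of mesothelium and stroma, fell by 2.36 in wild type with a cKO response of -0.53 (interaction 1.83, adjusted p = 0.000722, the same sign on all 10 features), and it was reduced instead of lost without vehicle Esr1 WT replicate 4. Krt19, a keratin of simple epithelium, rose by 1.72 and 0.93 (interaction -0.79, adjusted p = 0.00687). Pparg, a nuclear receptor of fat cells, rose by 1.20 in wild type with a cKO response of -0.25 (interaction -1.44, adjusted p = 0.00665), and Lpl, lipoprotein lipase, had an interaction of 1.60 (adjusted p = 0.0358, lost without any 1 of 9 arrays, with median scaling and with all 32 arrays). Casq1, a calcium-binding protein of skeletal muscle, fell by 3.41 in wild type with a cKO response of -0.49 (interaction 2.92, adjusted p = 2.33e-06). Myog, a muscle transcription factor, was dim in vehicle Esr1 WT, with an interaction of -1.08 or lower (adjusted p = 0.000422). Only 2 of its 10 features gave that sign, and it turned to 1.16 without vehicle Esr1 cKO replicate 4 and 1.08 without DES Esr1 WT replicate 4, and Myh1, a skeletal myosin, was dim in every group other than vehicle Esr1 WT and not called with all 32 arrays (adjusted p = 0.259).

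An interaction equals the genotype difference after DES minus that after vehicle, so each call can be read by the pair of groups that carries it. Of the 5868 calls, 4071 (69.4%) were called between genotypes after DES alone, 914 (15.6%) after vehicle alone, 360 after both and 523 after neither. In the lowest quartile by level 39.5% of the calls were called after vehicle alone, and in the highest quartile 0.48%. For the 410 genes called after vehicle alone with cKO above wild type, the array medians were -6.26 to -5.89 in vehicle Esr1 WT and -4.83 to -4.32 in the other 3 groups. For the 504 genes called the other way, they were -4.34 to -3.85 in vehicle Esr1 WT and -6.24 to -5.45 elsewhere. The 450 measured olfactory and vomeronasal receptor genes, a list chosen after values were seen, belong to sensory neurons of the nose, and 56.7% of them were called between genotypes after vehicle, 19.1% after DES and 61.3% in the interaction. The part of hybridization or scanning in these weak calls was not tested. The vehicle difference was the larger of the 2 genotype differences for 34.3% of lost, 2.79% of reduced, 28.9% of kept and 60.3% of reversed genes. Without the genes called after vehicle, the lost class held 1996, the reduced class 944 and the reversed class 64 genes.

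**Figure D5:**
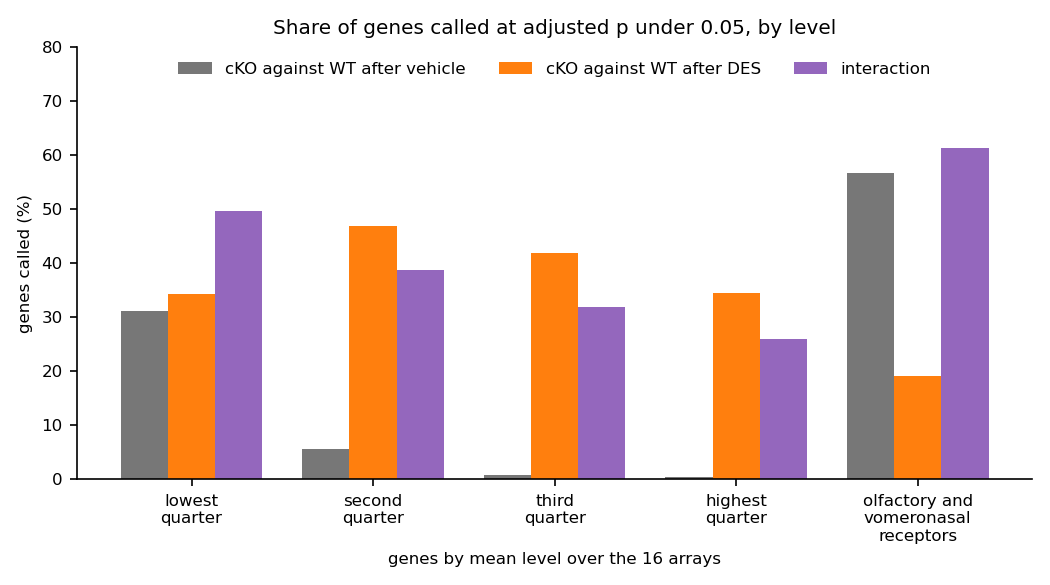
Share of genes called at an adjusted p under 0.05 (y axis, percent) in quartiles of the 16069 genes by mean level and among 450 olfactory and vomeronasal receptor genes. Calls between genotypes after vehicle fall from 31.1% in the lowest quartile to 0.348% in the highest and reach 56.7% among the receptor genes.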

How the data were processed

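The authors deposited 1 intensity per feature and array on a linear scale, read out with version 12 of Agilent's Feature Extraction software (the submitters' processing notes), from single-colour arrays of Cy3-labelled RNA per the labels. No source used here gives the background correction or normalization. Of 45018 features, 33653 carried 1 gene symbol. The number of arrays limits the precision.

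After taking log2, each array's 75th percentile was subtracted from its values. A feature was kept above its array's 30th percentile on at least 4 of the 16 arrays (33534 features). A gene was represented by its kept feature of highest mean, which gave 16069 genes. Group means were fitted with limma 3.58.1 in R 4.3.3 (12 residual degrees of freedom), with Benjamini-Hochberg adjustment within each comparison. All adjusted p-values are from this fit, and the interaction is a contrast of contrasts. Where a group was dim on all 4 arrays, changes are bounds against the 30th percentile. Replicate numbers were not used as pairs, since the deviations of same-numbered arrays correlated between -0.14 and 0.12 over 24 pairs. The fit was tested on simulated arrays. Figures were drawn with matplotlib 3.10.9.

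Named genes are Esr1 and Pgr, then up to 4 genes per class and direction. These have the largest interaction (for kept genes, the largest smaller response) among genes with an established name, no dim group and the same class without vehicle Esr1 WT replicate 4. For called interactions the array differences of the genotypes also do not overlap. From each of 28 lists, the 3 members of largest called interaction were added (with none called, the member of largest value). Genes outside this rule are marked where they appear. The members, classes, lists and tests were chosen with earlier results of these data known. The alternatives were other scalings, 16 added to each intensity, other filters, the mean of a gene's features, all 32 arrays, another variance model, array weights, the replicate number as a block, stricter thresholds and leaving out each array. Leaving out the lowest quartile by level, and the genes called after vehicle, were chosen after the data were seen.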

Additional observations from a re-analysis of the deposited data

Results flagged for a closer look

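For the 111 named genes, 444 groups of 4 arrays were examined for a single array far from the other 3. Such an array was found in 32, where chance gives about 1 in 20 groups. Of the 32, 16 were vehicle Esr1 WT replicate 4, the array with the low 75th percentile. Its Xist level was -2.35, where the others were 3.56 to 4.02. It was the highest of its group for Aoc1 at -3.40 (others up to -5.46), Lef1 at 2.30 (up to 0.83), Prok2 at -3.45 (up to -6.14), Myl7 at -0.76 (up to -2.38) and Hoxd4 at 3.20 (up to 1.25). The same held for Nr2f2 at 5.13 (up to 4.33), E2f1 at 1.31 (up to 0.28), Crabp1 at 3.56 (up to 2.44), Cyp26b1 at 1.94 (up to 0.32), Ifit3 at -2.96 (up to -3.40) and Hbb-bh1 at -4.64 (up to -5.67). It was the lowest of its group for Muc1 at -4.59 (others down to -3.04), Greb1 at -5.05 (down to -3.59), Fdft1 at -0.75 (down to 0.84) and Col6a1 at 2.90 (down to 4.33). Aoc1, Lef1, Prok2, Myl7 and Hoxd4 were named by a rule that asks for the same response class without this array, so their classes say nothing of its weight. Of the other genes here, Nr2f2 and Col6a1 went from lost to reduced and Fdft1 from lost to no class without it.

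Flags on the other arrays were no more frequent than the 1 in 20 groups that chance gives. In the rest of vehicle Esr1 WT, replicate 3 was at -5.90 for Cyp26a1 (others -4.86 to -4.71) and at -5.58 for Aqp8 (others -3.55 to -3.38). In vehicle Esr1 cKO, replicate 4 was at -4.14 for Scgb3a1 (others all at -6.47), at 0.51 for G6pc2 (others 0.19 to 0.21) and at -4.65 for Ptch1 (others -3.76 to -3.70). Replicate 3 of that group was at -2.11 for Them5 (others -2.65 to -2.59) and at -2.97 for Ovol1 (others -3.47 to -3.40), and replicate 1 at -2.51 for Cd55 (others -2.21 to -2.17). In DES Esr1 WT, replicate 2 was at -3.69 for Sfrp5 (others -3.39 to -3.36) and 3.07 for Nr2f2 (others 2.83 to 2.87), and replicate 4 at 1.20 for Sdf2l1 (others 1.38 to 1.40). In DES Esr1 cKO, replicate 1 was at -3.53 for Mfsd4a (others -3.01 to -2.91) and -2.12 for Dnali1 (others -4.83 to -4.45). Replicate 2 was at 1.25 for E2f2 (others 0.83 to 0.89). Replicate 4 was at -1.23 for Ifit3 (others -2.37 to -2.20) and 5.56 for Col6a1 (others 5.04 to 5.08).

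The response to DES differed between genotypes by the test of the interaction itself, with 3291 genes higher and 2577 lower in cKO. Features with no gene symbol, which enter no comparison above, were tested apart. Of 6071 such features, 1736 (28.6%) were called in the interaction, 1078 higher and 658 lower, against 36.5% of the 16069 genes.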

How the results depend on the processing

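Counts of interaction calls stayed within 1.5 times the reported 5868 under every alternative except an adjusted p under 0.01 and a 2-fold minimum. At an adjusted p under 0.01 they were 3733 for the interaction and 1207 for the cKO response, with 511 reduced, 3 enlarged, 62 reversed and 35 cKO-only genes. With a 2-fold minimum they were 3784 for the interaction, 5268 and 976 for the responses in wild type and cKO and 2638 for the genotypes after DES, with 422 reduced and 78 reversed genes. Array weights gave 5550 cKO calls, 1968 reduced, 17 enlarged and 555 reversed genes. A filter at the array median gave 390 calls between genotypes after vehicle, 1884 lost, 76 reversed and 17 cKO-only genes. Without the lowest quartile by level these were 145, 1597, 53 and 11, with 135 kept and 4 enlarged. All 32 arrays gave 7 enlarged and 78 reversed genes, leaving out genes called after vehicle gave 64 reversed, and cKO-only genes numbered 133 with no filter and 32 with 16 added to each intensity. Leaving out single arrays gave 5069 to 7369 interaction calls, 1591 to 3913 cKO calls, 747 to 1538 reduced and 119 to 325 reversed genes, with each highest value without vehicle Esr1 WT replicate 4. The lowest counts of reduced and reversed genes were those without vehicle Esr1 cKO replicate 4. The cKO response holds no wild-type array, but the residual variance in its test is fitted over all groups. The median cKO response over all genes was -0.0457 with vehicle Esr1 WT replicate 4 and -0.0464 without it. The cause of the shifts in these counts was not tested. With the replicate number as a block the interaction was called for 5617 genes, and 6 of 16 arrays correlated best with their own number.

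Of 101 named genes with a called interaction, 80 kept direction and call under all alternatives that tested them, and 18 missed the threshold under at least 1. Of 10 named genes without a called interaction, 7 stayed uncalled under all alternatives that tested them. Myl7 and Hoxd4 were called with array weights, and Gabra2 without vehicle Esr1 cKO replicate 1 or DES Esr1 WT replicate 4. Some genes were not tested under every alternative, for example Sfrp5, tested under 27 of 30. Genes named for a class were chosen for large interactions and for the same class without vehicle Esr1 WT replicate 4, which by itself favours such stability. The mean of a gene's features gave 0.26 for Ptch1, -0.0427 for Ldb3, 0.84 for Cd4 and 1.94 for Myog, and all 32 arrays gave 0.51 for Aqp4, each opposite in sign to the reported value. Leaving out single arrays gave -0.53 to 1.27 for Gabra2 and -2.61 to 1.16 for Myog. Weak features limit the lost, kept, enlarged, reversed and cKO-only classes, since 45.1% to 78.2% of their genes lay in the lowest quartile by level. In the reduced class this share was 19.5%.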
